A study of Rattus norvegicus with 35 samples.

Results

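Among the 24 rat mammary tumours of this series, the 8 with the highest and the 8 with the lowest signal of Pgr, the gene of the progesterone receptor, were compared across all other genes on the array. The tumours were ranked by the log2 signal of the one probe set that reads Pgr (a probe set is several short oligonucleotides for one transcript, read together as one signal). Of the 35 arrays in the series, the 16 compared are called Pgr-high and Pgr-low tumours here, and the 8 tumours between them and 11 normal mammary glands are given for reference. The tumours were thus chosen by a measured value, the Pgr signal, and not by a label: Pgr itself is described and never tested. Both sets of tumours, and the 8 between them, were induced with N-methyl-N-nitrosourea (NMU), which alkylates DNA and causes cancer, and are labelled as frozen; the normal glands carry no agent in their labels. The sources used here give no strain, hormone treatment or time after the carcinogen. No age is stated, though 1 of the normal glands has the title Young. The labels do not say which samples came from which animal, so the p-values measure the spread between these samples, which may be technical in part. Some titles share a number: the tumours X29.1 and X29.2, the tumours X25L and X25R, and 2 tumours with 1 normal gland each (X27 with X27.1N and X28 with X28.1N). If a number marks an animal, the 8 Pgr-high tumours are not 8 separate animals.

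The progesterone receptor is a nuclear hormone receptor that binds progesterone and then switches genes on or off. In the mammary gland it lies in a subset of luminal epithelial cells that also carry the oestrogen receptor, and oestrogen raises its transcription. These hormone-sensing cells pass the signal to their neighbours through secreted factors, among them amphiregulin, WNT4 and the RANK ligand. Mammary tumours induced by NMU in rats are known for their dependence on ovarian hormones and prolactin.

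The Pgr signal was 177, 241 and 321 in Pgr-high tumours (lowest, median and highest of 8), and 33.8, 95.7 and 124 in Pgr-low tumours. It was 30.2, 75.1 and 187 in the 11 normal glands, so 1 normal gland reached into the range of the Pgr-high tumours. The Pgr-high mean was 247 ± 51.7 (SD, n = 8), the Pgr-low mean 91.0 ± 30.0 (SD, n = 8) and the normal mean 85.5 ± 47.2 (SD, n = 11). On the log2 scale the 2 sets of tumours differed by 1.47 in their means, a 2.77-fold difference that the ranking itself made. The ranking was continuous: the lowest Pgr-high tumour, X25L, read 177.2 and the first tumour outside, X25R, read 172.1, while the highest Pgr-low tumour, X13, read 123.7 and the first outside, X15, read 124.8. The mean Pgr level lay at the 36.9th percentile of all probe sets, and 1 tumour, X22L in the Pgr-low set, lay under the floor of 41.6 to which low signals were raised before log2 was taken. Of the tumours that share a title number, X29.1 and X29.2 are both Pgr-high, and X25L and X25R lie on either side of the upper boundary.

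**Figure D1:**
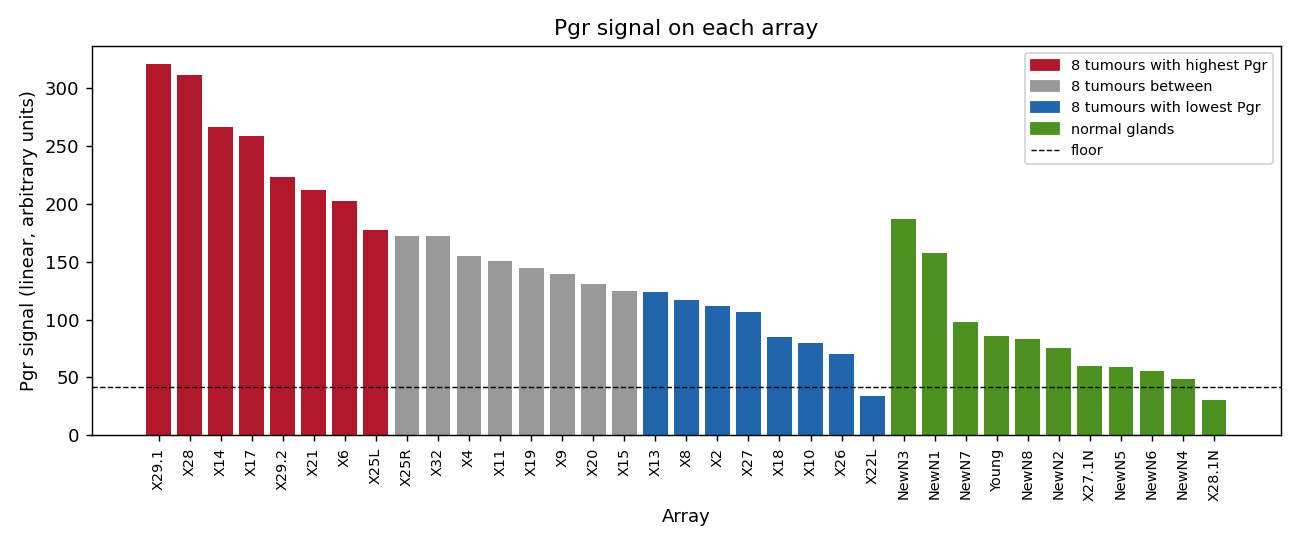
Deposited Pgr signal (linear, arbitrary units) on each of the 35 arrays, with tumours ordered by Pgr and then normal glands; bars are single arrays and the dashed line is the floor of 41.6. Pgr-high tumours run between 177 and 321 and Pgr-low tumours between 33.8 and 124, with no step at either boundary.

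One Pgr-low tumour, X22L, stood apart from all others and touches most results below. Its median correlation with the other 23 tumours was 0.829 over all probe sets, against 0.918 for the next lowest tumour. It was the lowest of the 24 tumours for 4 genes of luminal epithelium: the keratin genes Krt19 (73.3) and Krt7 (57.9), the adhesion molecule gene Epcam (98.5) and the surface antigen gene Cd24 (382). In the other 23 tumours Epcam was at least 1659 and Cd24 at least 2066. The sum of the signals of 33 fibroblast and matrix genes was highest in X22L among the Pgr-low tumours, at 106513, where the Pgr-high tumours had at most 57573. Correlations between arrays were 0.919, 0.955 and 0.975 within the Pgr-high set (lowest, median and highest of 28 pairs) and 0.800, 0.924 and 0.957 within the Pgr-low set. Values without X22L are therefore given beside the main results. RNA quality and signal range did not pass an exact permutation test between the sets: the 3′/5′ ratio of Gapdh was 0.999 ± 0.0645 in Pgr-high and 1.06 ± 0.108 in Pgr-low tumours (SD, n = 8 each, two-sided exact permutation p = 0.189, adjusted over 5 measures p = 0.808).

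No gene passed the test between the 8 Pgr-high and the 8 Pgr-low tumours. With limma and a Benjamini-Hochberg adjustment over 15865 probe sets, 0 of 10410 genes (0.0%) had an adjusted p under 0.05, and the smallest adjusted p of any probe set was 0.161. At an unadjusted p under 0.05 there were 510 genes with a higher mean in Pgr-high tumours (4.9%) and 306 with a lower one (2.94%). The log2 difference, Pgr-high minus Pgr-low, had a median of 0 over all genes. It was at least 2-fold upward for 26 genes and at least 2-fold downward for 6. In 4 genes (0.0384%) every Pgr-high tumour lay above every Pgr-low tumour, and in 0 genes every one lay below. On simulated arrays of this size the same test recovered 62% of 1.5-fold and 86% of 2-fold changes, 50 of each among 15866 simulated probe sets. The same simulation held 50 changes each of 3-fold and 4-fold, which ease the adjustment for the smaller ones. The changed probe sets were drawn only from those well above the floor, and the noise of each was independent of the others. The shares recovered therefore do not hold for dim genes such as Esr1, and may be lower where few genes change. Genes that move together were not simulated.

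A second fit used all 24 tumours and asked how far each gene moved with Pgr, as a slope: the log2 change of the gene per log2 unit of Pgr. Here 128 genes (1.23%) rose with Pgr and 48 (0.461%) fell at an adjusted p under 0.05. Most of these calls were lost in the 23 tumours without X22L, where 4 genes rose (0.0384%) and 1 fell (0.00961%): Cited4, Plet1, Btc and Ireb2 rose, and Nod1 fell. Over the 24 fits that each left out 1 tumour, the number of called probe sets was 255 with all tumours and ran from 12 without X22L to 493 without X28, with 157 without X10. Cited4, Plet1, Btc and Nod1 were called in 24 of these 24 fits, and Ireb2 in 1 of them, the fit without X22L. The slope test counts tumours with a shared title number as separate samples. With the title number as a random block (correlation 0.447) 104 genes rose (0.999%) and 30 fell (0.288%), and with 1 tumour per title number, 22 tumours, 75 rose (0.72%) and 16 fell (0.154%). Without X22L and with the block, Cited4, Plet1, Btc and Ireb2 rose and Nod1 fell (block correlation 0.429).

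The genes that follow hormone receptors were described first. Areg encodes amphiregulin, the growth factor of the epidermal growth factor (EGF) family that carries the oestrogen signal in ductal growth. Its signal was 1239, 2216 and 2838 in Pgr-high tumours, against 139, 962 and 2408 in Pgr-low tumours and 91.0, 508 and 1110.5 in normal glands (lowest, median and highest). All 8 Pgr-high tumours lay above every normal gland, and 3 of them lay above every Pgr-low tumour, so the tumour sets overlapped. The log2 difference was 1.27 (SE 0.45, adjusted p = 0.499), with a 95% confidence interval of 0.31 to 2.23, so the 8 against 8 test did not pass, and it was 0.89 without X22L. Along the whole ranking Areg rose with Pgr, with a slope of 0.97 (SE 0.21, adjusted p = 0.0201). Without X22L, which had the lowest Areg signal of the Pgr-low tumours at 139, the slope was 0.61 (SE 0.22, adjusted p = 0.394) and did not pass.

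Esr1 encodes oestrogen receptor alpha, the receptor that drives Pgr transcription. It had 56.7, 80.6 and 127 in Pgr-high tumours, against 19.9, 39.0 and 83.5 in Pgr-low tumours and 33.0, 77.2 and 224 in normal glands. In Pgr-low tumours 4 of 8 arrays lay at or under the floor and in Pgr-high tumours 0 of 8, so the log2 difference of 0.73 (SE 0.19, adjusted p = 0.309) is bounded by the floor on one side. Its interval was 0.32 to 1.13, and 4 of the 8 Pgr-high tumours exceeded every Pgr-low tumour. Esr1 rose with Pgr over 24 tumours, by a slope of 0.49 (SE 0.12, adjusted p = 0.0307). The slope without X22L was of the same size, 0.53 (SE 0.14, adjusted p = 0.172), but did not pass. Esr1 in normal glands spanned both tumour sets.

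Prlr encodes the prolactin receptor and is a known target of progesterone. The brightest of its 3 probe sets read 1971, 2649 and 3335 in Pgr-high tumours, against 82.8, 1853 and 4159 in Pgr-low tumours and 415, 1098 and 1248 in normal glands. Every tumour of both sets except X22L lay above every normal gland, and the tumour sets overlapped, with 0 of 8 Pgr-high tumours above every Pgr-low tumour. The difference was 0.86 (SE 0.58, adjusted p = 0.764), with an interval of -0.37 to 2.09, and 0.27 without X22L. A second Prlr probe set read 783, 1476 and 2132 in Pgr-high tumours, against 66.1, 615 and 1716 in Pgr-low tumours, with a difference of 1.52 (SE 0.49, adjusted p = 0.429). That second probe set rose with Pgr over 24 tumours (slope 1.16, adjusted p = 0.00839), where the brightest had a slope of 0.87 (SE 0.26, adjusted p = 0.0846); without X22L neither passed (adjusted p = 0.228 and 0.926). The third probe set read 77.0, 102 and 145 in Pgr-high tumours, against 59.1, 83.3 and 168 in Pgr-low tumours. Its slope of 0.22 (adjusted p = 0.303) did not pass, nor did that of 0.15 without X22L (adjusted p = 0.841). The probe sets of Prlr thus disagreed on the call over 24 tumours.

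Ccnd1 encodes cyclin D1, the G1 cyclin through which both ovarian hormones act on division. It read 2227, 2687 and 3524 in Pgr-high tumours, against 685, 2411 and 3463 in Pgr-low tumours and 479, 656 and 1325 in normal glands. As for Prlr, all tumours of both sets except X22L lay above every normal gland, and the tumour sets overlapped. The difference was 0.36 (SE 0.24, adjusted p = 0.751), with an interval of -0.14 to 0.86, and 0.13 without X22L. Wnt4, a secreted WNT ligand downstream of progesterone, read 204, 296 and 579.9 in Pgr-high tumours, against 48.9, 217 and 650.3 in Pgr-low tumours and 81.3, 146 and 190.3 in normal glands. Its difference was 0.53 (SE 0.42, adjusted p = 0.813), with an interval of -0.36 to 1.41, and 0.21 without X22L. As a slope neither Wnt4 (adjusted p = 0.228) nor the brightest of the 3 probe sets of Ccnd1 (0.0724) passed. Another Ccnd1 probe set rose with Pgr (slope 0.49, adjusted p = 0.0449), but not without X22L (0.22, adjusted p = 0.663), and the remaining one did not pass (adjusted p = 0.0699). Both intervals leave room for no difference and for the differences seen.

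Tnfsf11, the gene of the RANK ligand that carries the progesterone signal to neighbouring cells, read 76.5, 107 and 132 in Pgr-high tumours, against 86.3, 114 and 457 in Pgr-low tumours and 66.2, 109 and 192 in normal glands. One Pgr-low tumour, X13, held the highest value at 457, and the other 7 reached at most 142. The difference of -0.35 (SE 0.26, adjusted p = 0.796) was downward and did not pass.

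**Figure D2:**
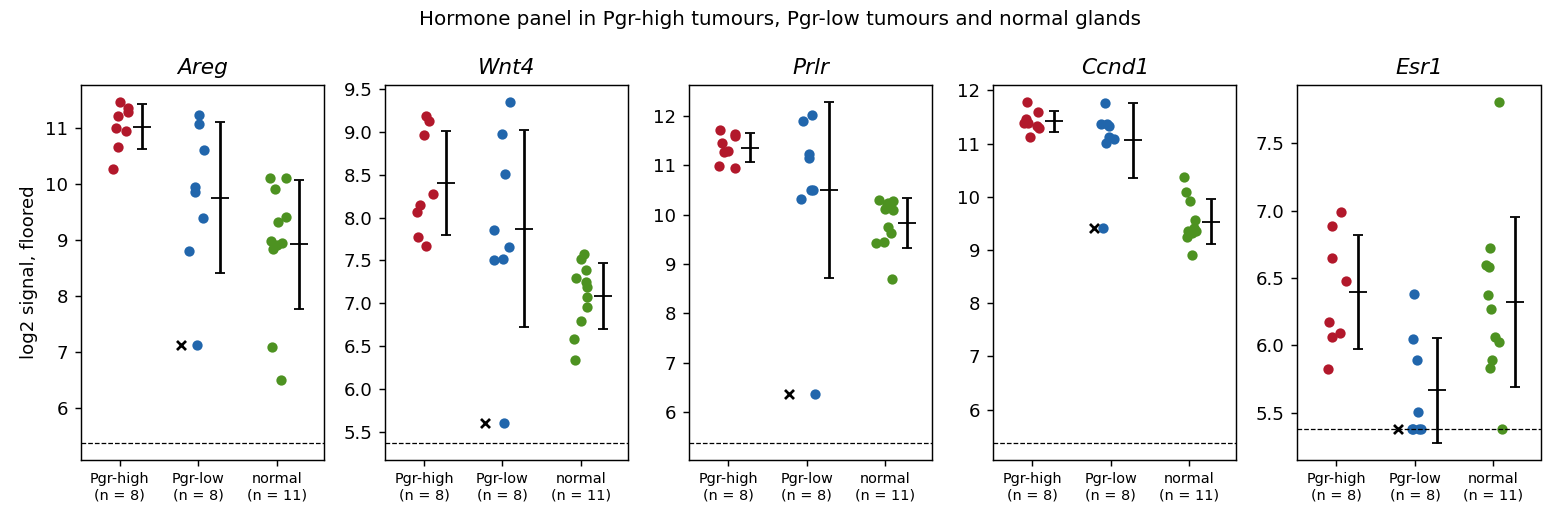
Log2 signal (floored) of the 5 hormone targets and receptors in Pgr-high tumours, Pgr-low tumours and normal glands; points are arrays, black bars are mean ± SD, the black cross marks X22L and the dashed line is the floor. Areg lies above all normal glands in every Pgr-high tumour, Esr1 is at the floor in 4 Pgr-low tumours, and the tumour sets overlap for all 5 genes.

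The 4 genes called in each of the 24 fits that left out 1 tumour were not among those hormone targets. Cited4 encodes a transcriptional co-activator that binds CBP and p300. It read 365, 806 and 1322 in Pgr-high tumours, against 71.1, 213 and 472 in Pgr-low tumours and 119.6, 213 and 571 in normal glands. Of the Pgr-high tumours, 7 of 8 lay above every Pgr-low tumour, and the normal glands lay at the level of the Pgr-low tumours by their medians. The difference was 1.88 (SE 0.37), with an interval of 1.09 to 2.66 and the smallest unadjusted p of all genes, 0.000104, which after adjustment was 0.309. Its slope was 1.32 (SE 0.15, adjusted p = 1.86e-05) and 1.47 (SE 0.17, adjusted p = 5.43e-05) without X22L. A second, dim probe set of Cited4 lay at the floor on all 16 arrays and gives no value.

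Plet1, which encodes an anchored surface protein of epithelia, read 1615, 3428 and 5631 in Pgr-high tumours, against 10.3, 881 and 2285 in Pgr-low tumours and 137, 650.1 and 1400.0 in normal glands. Of the 8 Pgr-high tumours 6 exceeded every Pgr-low tumour, and all 8 exceeded every normal gland. The difference was 2.21 (SE 0.65, adjusted p = 0.349), and 1.64 without X22L, which had the lowest value. The slope was 1.82 (SE 0.21, adjusted p = 2.89e-05), and 1.33 (SE 0.19, adjusted p = 0.000716) without X22L.

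Btc encodes betacellulin, an EGF-family ligand that binds the receptors EGFR and ERBB4. It read 66.2, 165 and 297 in Pgr-high tumours, against 27.9, 62.2 and 92.4 in Pgr-low tumours and 39.7, 70.6 and 115 in normal glands. Here 7 of 8 Pgr-high tumours lay above every Pgr-low tumour, X22L was not the lowest, and the Pgr-low and normal ranges overlapped. The difference was 1.27 (SE 0.26, adjusted p = 0.309) and the slope 0.76 (SE 0.14, adjusted p = 0.00937), which was steeper without X22L, at 1.03 (SE 0.15, adjusted p = 0.000716). Nod1, an intracellular sensor of bacterial cell wall fragments, ran the other way. It read 19.6, 54.9 and 92.8 in Pgr-high tumours, against 57.6, 119.9 and 147 in Pgr-low tumours and 218, 304 and 412 in normal glands. All tumours of both sets lay below all 11 normal glands, and the Pgr-high tumours had the lowest median. Nod1 fell with Pgr, by a slope of -0.61 (SE 0.10, adjusted p = 0.00478) and -0.71 (SE 0.12, adjusted p = 0.00586) without X22L, and the 8 against 8 difference was -0.87 (SE 0.20, adjusted p = 0.309).

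Ireb2 encodes an iron regulatory protein that binds messenger RNA. It read 107, 138 and 203 in Pgr-high tumours, against 37.6, 84.1 and 129 in Pgr-low tumours, with 5 of 8 Pgr-high tumours above every Pgr-low tumour. Its slope was 0.48 (SE 0.15, adjusted p = 0.0938), and it passed without X22L at 0.79 (SE 0.14, adjusted p = 0.0177). With the mean level of the luminal epithelium genes as a covariate of the slope, Cited4 (1.47, adjusted p = 0.000194), Plet1 (1.21, adjusted p = 0.00103), Btc (1.07, adjusted p = 0.000961) and Nod1 (-0.74, adjusted p = 0.0071) passed, and no other gene did, so 3 genes (0.0288%) rose and 1 (0.00961%) fell. On this score X22L lay at -3.31 and every other tumour at -0.37 or above. The fit is thus close to leaving X22L out and hardly adjusts for epithelium among the other tumours. Among probe sets without a single gene symbol in the annotation used, the 2 with the lowest p values without X22L had slopes of 0.74 (adjusted p = 6.55e-06) and 0.76 (adjusted p = 2.88e-05). Their genes are not named here.

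**Figure D3:**
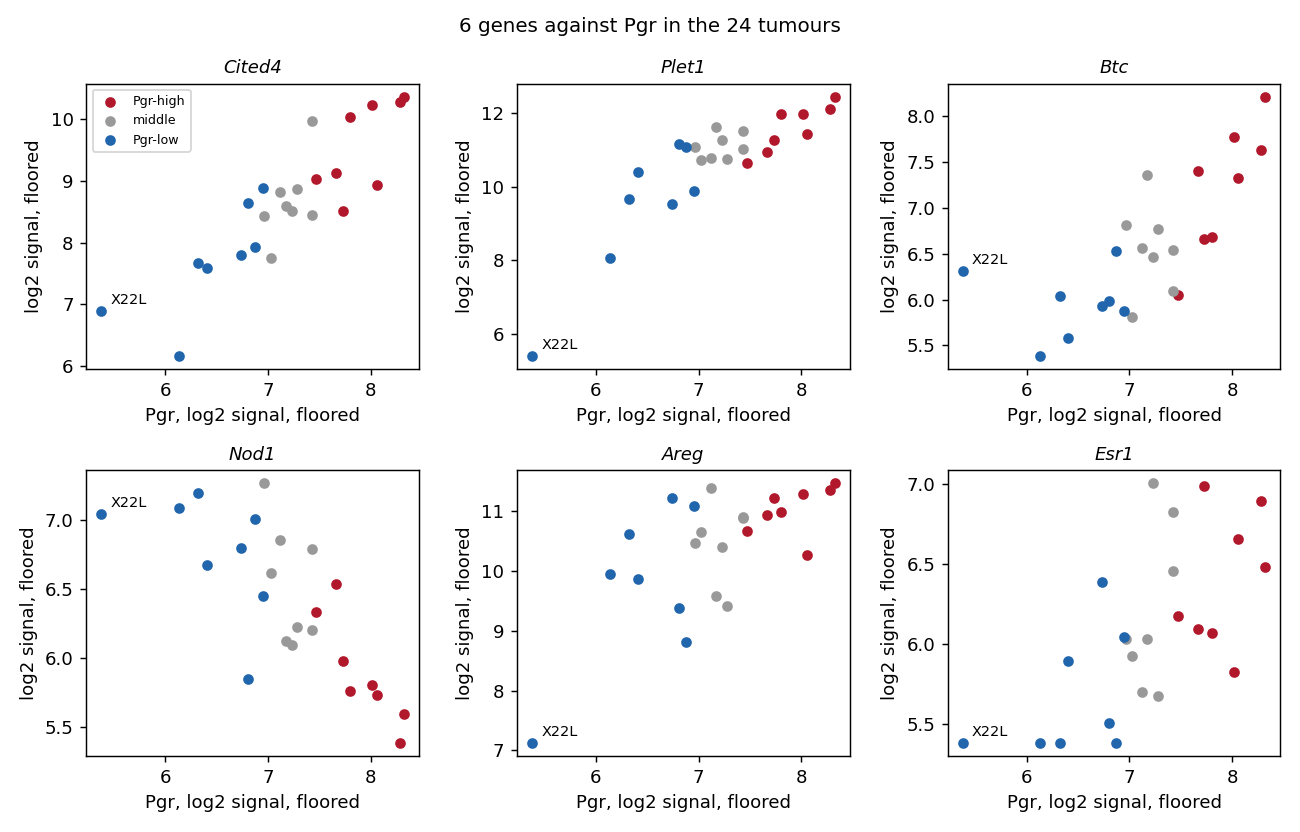
Log2 signal (floored) of 6 genes against that of Pgr in the 24 tumours, coloured by set, with X22L marked. Cited4 (r = 0.869), Plet1 (r = 0.863) and Btc (r = 0.73) rise and Nod1 (r = -0.776) falls with Pgr. Areg (r = 0.68) and Esr1 (r = 0.65) also rise, with Btc nearer to them than to Cited4. In X22L, which has the lowest Pgr, Btc read 79.3, above the Pgr-low median of 62.2.

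The 8 tumours between the sets took part in the slope fit that chose Cited4, Plet1, Btc and Nod1, so their values for these genes are a description. They read 214, 377 and 1008 for Cited4 (lowest, median and highest), 1706, 2118 and 3164 for Plet1, 56.3, 94.0 and 164 for Btc and 68.1, 86.3 and 154 for Nod1. Areg read 683, 1513 and 2705 and Esr1 51.0, 65.3 and 128 in the same tumours.

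By likeness of pattern over the 24 tumours, the genes closest to Pgr among 9816 genes above the floor in at least 12 tumours were Cited4 (Pearson r = 0.869, Spearman rho = 0.861), Plet1 (r = 0.863, rho = 0.796), Gnl3l (r = 0.80), Tmem123 (r = 0.79) and Padi2 (r = 0.77). The most opposed were Nod1 (r = -0.776, rho = -0.796), Rnaseh2c (r = -0.77), Kif22 (r = -0.74), Ddit3 (r = -0.73) and Kif15 (r = -0.73). Without the tumours X22L and X29.1, the 2 farthest from the median Pgr level, Cited4 kept r = 0.843, Plet1 0.798 and Nod1 -0.762 over 22 tumours, whereas Ddit3 was at -0.53 and Rnaseh2c at -0.59. The points share the array scaling and, in 2 pairs, a title number, and these correlations are given as a description.

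The 12 genes with the smallest p on the higher side, none of which passed, were Cited4, Btc, Ireb2 and 9 others. Il18, the gene of the cytokine interleukin 18, read 849, 1344 and 1623 in Pgr-high tumours, against 435, 781 and 1053 in Pgr-low tumours, a difference of 0.81 (SE 0.17). Gper1, a membrane receptor that responds to oestrogen, read 77.0, 92.6 and 123 in Pgr-high tumours, against 33.8, 61.3 and 79.0 in Pgr-low tumours, a difference of 0.70 (SE 0.15). Adam10, a membrane protease that sheds betacellulin among other ligands, read 148, 219.7 and 231 in Pgr-high tumours, against 84.5, 112 and 198 in Pgr-low tumours, a difference of 0.79 (SE 0.17). All 3 rose with Pgr over 24 tumours, by slopes of 0.54, 0.43 and 0.51 (adjusted p = 0.00697, 0.0305 and 0.00937). Without X22L the slopes were of similar size, 0.48, 0.53 and 0.54, but none passed (adjusted p = 0.115, 0.0976 and 0.082). Nptx1, a secreted pentraxin, read 74.6, 169.7 and 404 in Pgr-high tumours, against 9.22, 37.9 and 120.4 in Pgr-low tumours, a difference of 1.56 (SE 0.35) in which 5 Pgr-low tumours were at or under the floor. The differences of the other 5 were 0.57 for Lypla1, which encodes a thioesterase that removes palmitate from proteins, 0.89 for Glrx (glutaredoxin), 1.09 for Tmem123, 0.50 for Skp1, a subunit of SCF ubiquitin ligases, and 0.94 for Plbd1. The adjusted p of each of the 12 was 0.309.

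On the lower side the 12 smallest p values belonged to Nod1 and 11 others. Ccl5, a chemokine that draws T cells, read 137, 171 and 206 in Pgr-high tumours, against 191, 257 and 316 in Pgr-low tumours, a difference of -0.54 (SE 0.13). Tap1, a subunit of the transporter that loads peptides onto MHC class I, read 149, 183 and 331 in Pgr-high tumours, against 243, 318 and 410.0 in Pgr-low tumours, a difference of -0.64 (SE 0.17). Cd74, the invariant chain of MHC class II, read 1067, 2354 and 2611 in Pgr-high tumours, against 1993, 3583 and 5306 in Pgr-low tumours, a difference of -0.81 (SE 0.22). Of these Tap1 fell with Pgr, by a slope of -0.41 (adjusted p = 0.0135). Without X22L its slope was -0.45 (adjusted p = 0.0976), and the other 2 did not pass in either fit. Kifc1, a kinesin of the mitotic spindle, differed by -0.48, and Tubgcp2, a component of the gamma-tubulin complex, by -0.23. The remaining differences were -0.42 for Dnajc17, -0.34 for Zfp483, -0.42 for Sptb, -0.53 for Smpd2, -0.32 for Wdr5b and -0.30 for Nmbr. Adjusted p values of the 12 ran from 0.309 to 0.346.

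The genes whose sets did not overlap, 4 of 10410 (0.0384%), were Tmem123, Fam91a1, Nudt4 and Pon2, and they are named after their values were seen. Tmem123 read 1646, 1914 and 2585 in Pgr-high tumours, against 313, 1018 and 1625 in Pgr-low tumours. Fam91a1 read 331, 376 and 562 in Pgr-high tumours, against 172, 299 and 318 in Pgr-low tumours. Nudt4, a phosphohydrolase of inositol pyrophosphates, read 1125, 1241 and 1582 in Pgr-high tumours, against 653, 1044 and 1112 in Pgr-low tumours, and Pon2, a paraoxonase, read 417, 438 and 565 in Pgr-high tumours, against 233, 353 and 402 in Pgr-low tumours. In each, all 8 Pgr-high tumours were above all 8 Pgr-low tumours, by a narrow gap such as 417 against 402 for Pon2.

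Apart from Btc, no gene of any list below passed as a slope without X22L. Over 24 tumours 1.23% of all genes rose and 0.461% fell as slopes, the shares to set beside the slope calls of each list. Gene lists were read by their counts and medians beside those of all 10410 genes, of which 48.6% had a higher and 49.6% a lower mean in Pgr-high tumours. In bulk tissue, fewer cells of a type and less RNA per cell cannot be told apart. Of 16 markers of hormone-sensing luminal cells 12 had higher means and 4 lower, with a median log2 difference of 0.40, and of 0.15 without X22L. None passed the 8 against 8 test, and 6 (Esr1, Tbx3, Areg, Xbp1, Tspan8 and Prom1) had an unadjusted p under 0.05, all on the higher side, where 4.9% of all genes did. Without X22L 3 of the 16 did, against 4.87% of all genes. Tbx3, a transcription factor of hormone-sensing cells, read 356, 479.6 and 603 in Pgr-high tumours, against 265, 337 and 527 in Pgr-low tumours, and Xbp1, an oestrogen-induced factor of the secretory pathway, read 1576, 2592 and 3575 in Pgr-high tumours, against 1011, 1808 and 2651 in Pgr-low tumours. As slopes Areg, Esr1 and Tbx3 rose.

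Of 19 known progesterone targets 14 had higher means and 5 lower (median 0.27, and 0.12 without X22L), with Areg the only one at an unadjusted p under 0.05 on the higher side, where 4.9% of all genes were. The median was 0.073 with the luminal epithelium score and 0.051 with the cell division score as a covariate. Other lists below moved too. With the cell division score the luminal epithelium median was 0.0082 and the fibroblast one 0.57, against 0.43 and -0.090 in the main fit. That of MHC class II and interferon genes was -0.43, against -0.56. Stat5a, the transcription factor of prolactin signalling, rose with Pgr as a slope, by 0.42 (SE 0.085, adjusted p = 0.0135), as did Areg, where 1.23% of all genes did. Without X22L the slope of Stat5a was 0.28 (SE 0.091, adjusted p = 0.304). Fkbp5, a chaperone that steroid receptors induce, read 42.6, 73.1 and 349.5 in Pgr-high tumours, against 74.4, 131 and 286 in Pgr-low tumours, with a downward difference of -0.56 (SE 0.39, adjusted p = 0.779). Of 26 oestrogen targets 18 had higher means and 8 lower (median 0.087). Areg and Xbp1 had an unadjusted p under 0.05, on the higher side, where 4.9% of all genes did. As slopes Areg and Krt19 rose, where 1.23% of all genes did. Without X22L the slope of Krt19 was 0.41 (SE 0.16, adjusted p = 0.445). Among 30 steroid and nuclear receptors the split was 14 higher and 16 lower (median -0.027). Gper1 and Esr1 rose as slopes, as 1.23% of all genes did.

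In prolactin and growth hormone signalling, 8 of 16 genes had higher and 8 lower means (median 0.050). Jak2, the kinase bound to the prolactin receptor, read 206, 233 and 321 in Pgr-high tumours, against 80.2, 168 and 212 in Pgr-low tumours, and rose as a slope of 0.52 (SE 0.11, adjusted p = 0.0135). Without X22L its slope was 0.55 (SE 0.13, adjusted p = 0.115). Stat5a also rose and Ptpn6, a phosphatase of blood cells, fell as slopes. Of 22 receptor chaperones and coregulators 14 had higher means and 8 lower (median 0.059). Hspa4 and Fkbp4, a heat shock protein and an immunophilin of the receptor complex, rose as slopes of 0.29 and 0.27 (adjusted p = 0.0444 and 0.0402), and neither passed without X22L.

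Of 15 ERBB receptors and EGF-family ligands 12 had higher means and 2 lower (median 0.16, and 0.12 without X22L). Btc, Areg, Erbb3 and Tgfa had an unadjusted p under 0.05, all on the higher side, where 4.9% of all genes were. Without X22L 3 of the 15 did, against 4.87% of all genes. Btc, Areg and Erbb3 rose as slopes, as 1.23% of all genes did, and without X22L Btc alone did. Erbb3, a receptor that signals by pairing with ERBB2, read 227, 258 and 306 in Pgr-high tumours, against 115, 217 and 284 in Pgr-low tumours. In the WNT pathway 15 of 26 genes had higher means (median 0.048, and 0.021 without X22L), in the axis of insulin-like growth factors 10 of 15 (median 0.083), in G1 control 10 of 17 (median 0.062, and 0.015 without X22L) and in the axis of tumour necrosis factor and RANK ligand 7 of 12 (median 0.040, and -0.0040 without X22L). No gene of these 4 lists passed as a slope.

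**Figure D4:**
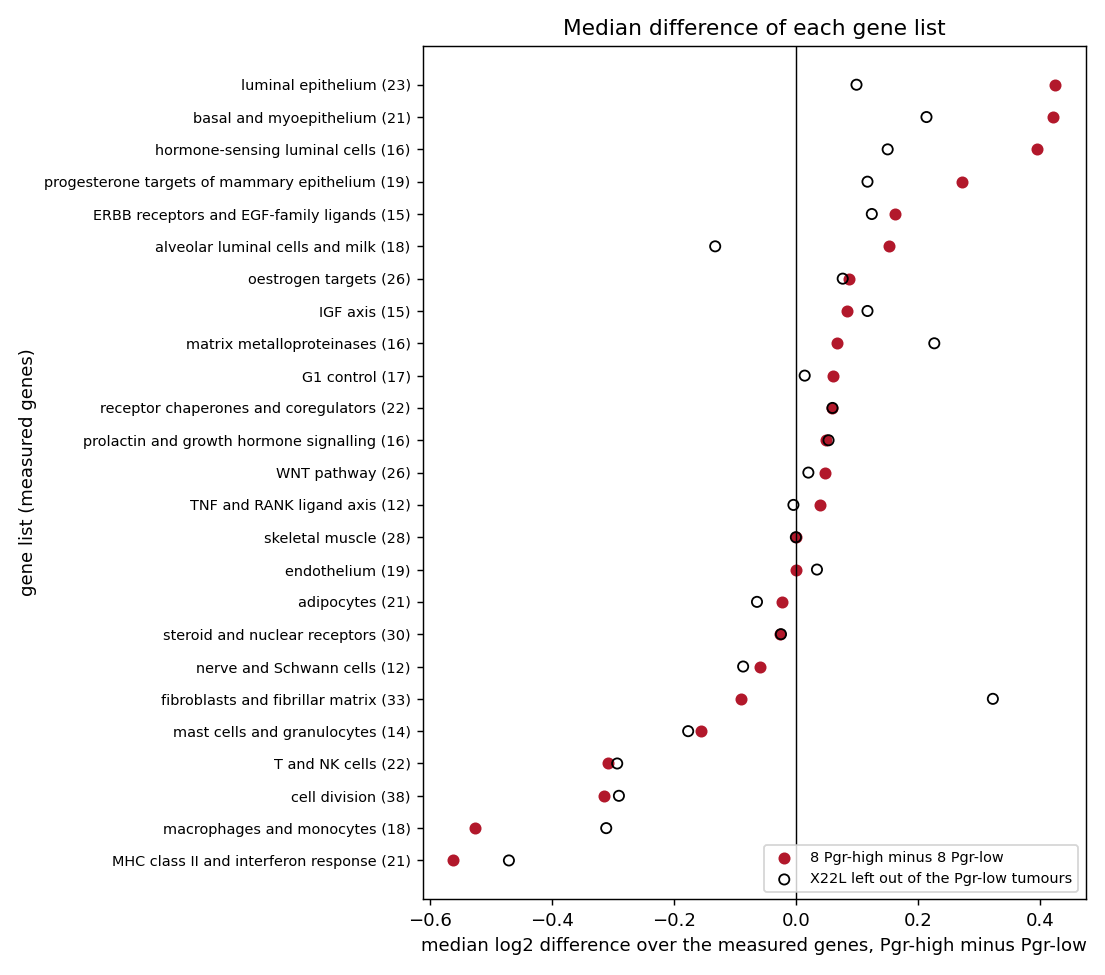
Median log2 difference, Pgr-high minus Pgr-low, over the measured genes of each list with at least 10 of them (number in brackets); filled points use all 16 tumours and open points leave out X22L. MHC class II and interferon genes, T and NK cell genes and cell division genes lie left of 0 either way, while the luminal epithelium median is 0.43 with and 0.10 without X22L and the fibroblast median changes sign.

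Genes of cell division had lower means in Pgr-high tumours throughout. All 38 measured genes lay lower, with a median of -0.31, and of -0.29 without X22L, when again all 38 did. Of these 9 had an unadjusted p under 0.05 on the lower side, where 2.94% of all genes did, and none passed after adjustment. Without X22L 6 of the 38 had one, against 3.21% of all genes. Mki67, a marker of dividing cells, read 96.0, 133 and 183 in Pgr-high tumours, against 95.2, 244 and 413 in Pgr-low tumours, and Birc5, which encodes survivin of the chromosomal passenger complex, read 184, 233 and 302 in Pgr-high tumours, against 239.9, 297 and 439 in Pgr-low tumours. Mki67, Birc5 and Tk1, the thymidine kinase of S phase, fell with Pgr as slopes (adjusted p = 0.0305, 0.0324 and 0.0246), as 0.461% of all genes did. None of these 3 passed without X22L (adjusted p = 0.228, 0.282 and 0.305). The sum of the 38 signals was 7505, 10574 and 12560 in Pgr-high tumours (lowest, median and highest), against 9019, 13395 and 18143 in Pgr-low tumours and 5618, 6665 and 12533 in normal glands, so the tumour sets overlapped.

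Cell division genes rise and fall together, so the 38 genes are not 38 separate observations. Pcna, a clamp of replication, differed by -0.22 (adjusted p = 0.792) and Cks2, a partner of cyclin-dependent kinases, by -0.74 (adjusted p = 0.541). The lowest sum among Pgr-high tumours was that of X14 and the highest among Pgr-low tumours that of X22L.

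**Figure D5:**
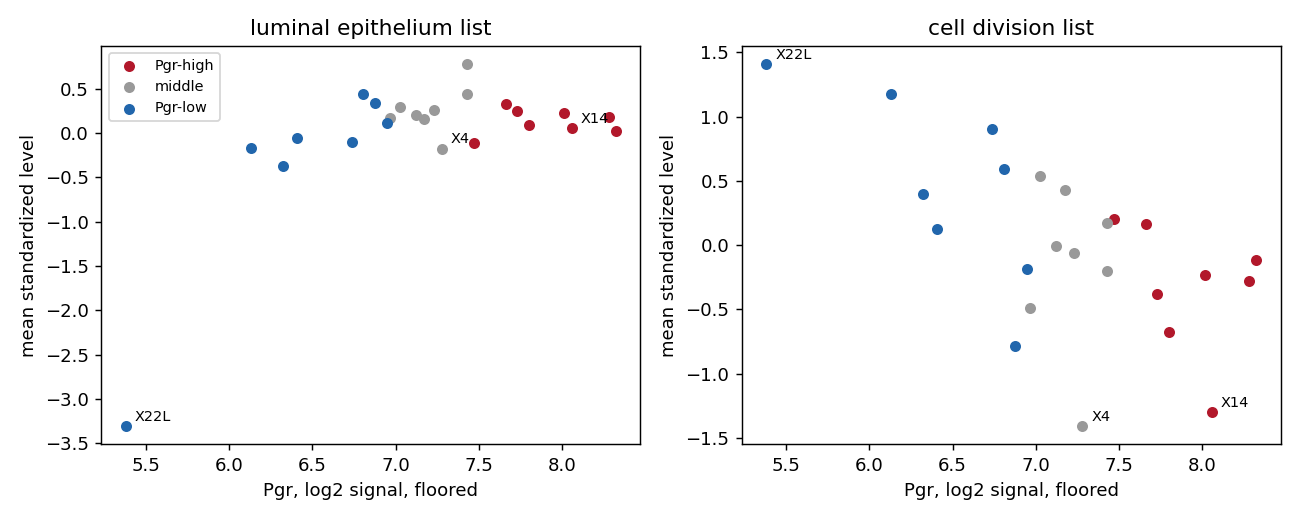
Mean standardized level of the luminal epithelium genes (left) and the cell division genes (right) against log2 Pgr in the 24 tumours, coloured by set; each gene was standardized over the 24 tumours. X22L lies at -3.31 for luminal epithelium, where the other tumours are at -0.37 or above, while cell division is spread over the whole Pgr range and is lowest in X4 and X14.

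Most genes of MHC class II and the interferon response, of T and NK cells and of macrophages also had lower means in Pgr-high tumours. Such genes may move together, and Cd74 is in both the macrophage and the MHC class II list, so their counts are not separate observations. All 21 genes of MHC class II and the interferon response had lower means, with a median of -0.56, and of -0.47 without X22L, with 9 at an unadjusted p under 0.05, where 2.94% of all genes were on the lower side, and none after adjustment. Without X22L 7 of the 21 had such a p, against 3.21% of all genes on the lower side. Tap1, Gbp2 and Cxcl10 of this list fell as slopes, as 0.461% of all genes did, and none without X22L. Of 22 genes of T and NK cells 21 had lower means (median -0.31, and -0.29 without X22L), 9 of them at an unadjusted p under 0.05 against the same 2.94%. Without X22L 7 of the 22 were, against the same 3.21%. Ptprcap, a protein bound to the leukocyte phosphatase CD45, read 22.1, 38.5 and 104 in Pgr-high tumours, against 43.5, 91.1 and 381 in Pgr-low tumours, and Coro1a, an actin regulator of leukocytes, read 54.5, 116 and 197 in Pgr-high tumours, against 97.5, 212 and 639 in Pgr-low tumours. Both fell as slopes (adjusted p = 0.0129 and 0.0407), and neither passed without X22L (adjusted p = 0.274 and 0.433).

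Of 18 genes of macrophages and monocytes 17 had lower means (median -0.53, and -0.31 without X22L). Fcgr3a, an antibody receptor of these cells, read 198, 241 and 305 in Pgr-high tumours, against 219, 311 and 2882 in Pgr-low tumours, where X22L held the value of 2882 and the other Pgr-low tumours at most 525. Fcgr3a, Fcer1g and Tyrobp fell as slopes, as 0.461% of all genes did, and none of the 18 passed without X22L. The summed signals were 7020, 10129 and 14310 for macrophages in Pgr-high tumours, against 9116, 14119 and 31865 in Pgr-low tumours. For T and NK cells they were 2481, 2803 and 3460 in Pgr-high tumours, against 2873, 3545 and 4989 in Pgr-low tumours. For MHC class II and interferon genes they were 13879, 18673 and 25195 in Pgr-high tumours, against 18713, 25122 and 35177 in Pgr-low tumours. All of these ranges overlapped, and the share of immune cells in the tumours, and its part in the other differences, was not tested.

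Of 23 genes of luminal epithelium 21 had higher means in Pgr-high tumours (median 0.43), and without X22L 15 did (median 0.10). Cd24, Rab25, Krt19 and Epcam rose as slopes over 24 tumours, where 1.23% of all genes did, and none did without X22L. Krt7, named after its values were seen, was the only gene of the 23 with an unadjusted p under 0.05. On the higher side 4.9% of all genes had one. Without X22L 2 of the 23 had one, against 4.87% of all genes. Krt7 read 212, 533 and 705 in Pgr-high tumours, against 57.9, 320.3 and 461 in Pgr-low tumours, with 7 of 8 Pgr-high tumours above every Pgr-low tumour. The summed signals were 20492, 27718 and 30383 in Pgr-high tumours, against 3025, 24274 and 33612 in Pgr-low tumours, the lowest being X22L. Of 21 basal and myoepithelial genes 17 had higher means, with or without X22L (median 0.42 and 0.21). Tagln, a smooth muscle protein of myoepithelium, read 322, 839 and 1888 in Pgr-high tumours, against 140.2, 426 and 707 in Pgr-low tumours. No basal gene passed as a slope.

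Milk and alveolar genes split into 10 higher and 8 lower of 18 (median 0.15, and -0.13 without X22L). Csn2, which encodes beta-casein, read 28.9, 49.1 and 2301 in Pgr-high tumours, against 34.5, 46.5 and 1907 in Pgr-low tumours, the highest Pgr-high value being that of X6. Fibroblast and matrix genes had 15 higher and 18 lower means of 33 (median -0.090), but 27 higher and 6 lower without X22L (median 0.32). Medians of the remaining lists with more than 10 measured genes were -0.023 over 21 adipocyte genes, -0.00050 over 19 endothelial genes, -0.16 over 14 genes of mast cells and granulocytes, 0.00080 over 28 skeletal muscle genes and -0.059 over 12 genes of nerve and Schwann cells. Without X22L the adipocyte median was -0.064 and the endothelial one 0.035. The matrix metalloproteinases had a median of 0.068 over 16 genes, and of 0.23 without X22L. Mmp3, which encodes stromelysin, read 1057, 2625 and 5480.0 in Pgr-high tumours, against 614, 1239 and 2741 in Pgr-low tumours, a difference of 1.10 (SE 0.37, adjusted p = 0.472). Mmp16 fell as a slope, and not without X22L. The medians over 4 erythrocyte genes and 2 genes of B and plasma cells were 0.025 and 0.039. In mast cells and granulocytes 3 genes were at the floor in all Pgr-high tumours and in muscle 6.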

How the data were processed

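RNA of 24 NMU-induced mammary tumours and 11 normal mammary glands of the rat was hybridised to 1 array each. For 15923 probe sets the deposited file gives a linear intensity, which the authors had scaled per array, by a method not given in the sources used here. Array medians ran from 158 to 176, so that scaling was kept, and the smallest deposited intensity is 1. The number of arrays, not a count depth, limits the precision.

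The 57 control probe sets were left out. Signals below 41.6, their 10th percentile, were raised to it before log2 was taken. A gene was read by its brightest probe set, by mean over the 35 arrays: 12783 probe sets carry 1 symbol in the platform annotation, 312 several and 2771 none, and 12748 Entrez identifiers matched the RefSeq table of GRCr8 with 0 symbols changed. No array columns were left unused. The array has 1 Pgr probe set, which ranked the 24 tumours and was left out of every test.

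The test between the 8 highest and 8 lowest tumours used limma version 3.58.1 under R version 4.3.3, with lmFit and a trended, robust eBayes and with Benjamini-Hochberg adjustment over 15865 probe sets and calls at an adjusted p under 0.05. Confidence intervals are not adjusted. RNA quality and signal range, 5 measures, were compared with exact permutation tests over 12870 regroupings. The procedure was tested on simulated data. Scores are means of genes standardized over the 24 tumours.

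The members, the gene lists and the tests were chosen with earlier results of these data known. Named genes were Pgr, the hormone panel, the called genes or, failing those, the 12 smallest p values each way, up to 2 genes of each list with the largest difference and up to 2 with the highest level, and the 5 genes most and least correlated with Pgr. Other genes were named after their values were seen. Alternatives covered scaling, floor, dim probe sets, the spread model, group sizes, the slope on Pgr, title numbers, single tumours, covariates and probe sets per gene. The slope without X22L, with the luminal covariate, with title numbers and leaving out each tumour, and the fit without probe sets at the floor throughout, were added after seeing the data.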

Additional observations from a re-analysis of the deposited data

Results flagged for a closer look

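Within each set of 8 tumours, the highest or lowest tumour was flagged where its gap to the nearest other tumour, over the whole range (log2 signal for genes), exceeded Dixon's critical value of 0.526. Chance would flag about 1 in 20 separate groups not picked by their values, which is 7.7 of 154. The groups here share the same tumours, and many genes were picked by their values, so no excess over chance can be read. Of the 154 groups tested, 21 were flagged.

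The tumour X22L accounts for 9 of them. Among the Pgr-low tumours it had the lowest signal of Prlr at 82.8, where the others had at least 1283, and of Ccnd1 at 685, where the others had at least 2064. It was lowest for Krt19 at 73.3, Krt7 at 57.9, Epcam at 98.5 and Cd24 at 382, genes of luminal epithelium. It was also lowest for Fkbp4 at 245 and for Fam91a1 at 172, and highest for Fcgr3a at 2882.

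Among the Pgr-high tumours, X14 was lowest for Kif22 at 56.7, for Kif15 at 37.7, for Cks2 at 101 and for Cd24 at 2254, the first 3 being genes of cell division. X25L was lowest for Krt19 at 1322 and for Krt7 at 212. X6 was highest for Mx1, an interferon-induced gene, at 614, where the others reached 192, and for Csn2 at 2301, where the others reached 54.5. X29.1 was highest for Pon2 at 565, and X29.2 had the highest Actb 3′/5′ ratio at 1.65, where the others reached 1.30. Among the Pgr-low tumours, X13 was highest for Tnfsf11 at 457 and X2 lowest for Plbd1 at 88.2.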

How the results depend on the processing

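Counted by gene, none passed under any of the 19 other ways of making the split, nor when each of the 16 tumours was left out in turn (limma, 0 genes called in each). Over all probe sets, 1 was called higher with the 8 middle tumours in the fit as a group of their own. The slope on Pgr over 24 tumours called 196 probe sets higher and 59 lower (128 and 48 genes). Without X22L it called 11 and 1 (4 and 1 genes), and with the luminal epithelium score as covariate 8 and 1 (3 and 1 genes). With the title number as a random block the slope called 155 and 35 (104 and 30 genes), with 1 tumour per title number 111 and 17 (75 and 16 genes), and with the block and without X22L 10 and 1 (4 and 1 genes). Among genes followed through all alternatives, none of which passed the 8 against 8 test, the difference changed sign with the cell division score as covariate for Tk1 (0.0049), Pcna (0.10) and Kit (-0.023), and for Lum as a slope over 24 tumours (-0.21, -0.31 with the block and -0.28 with 1 tumour per title number); the cause was not tested. Without X22L it also changed sign for 8 of the genes named by the rule above, among them Krt5 (0.49, and -0.020 without), Lcn2 (0.43 and -0.15) and Spint2 (0.38 and -0.055). More genes of the whole lists changed sign: of 33 fibroblast genes 15 had higher means with X22L and 27 without, and of 23 luminal genes 21 and 15. The Actb 3′/5′ ratio differed by 0.0133 with 6 against 6 tumours, and by -0.0839 to 0.0060 when single tumours were left out. The 10th percentile of signal differed by -0.71 to 0.46 when single tumours were left out, and the 50th by -0.30 with X22L left out and the tumours ranked again. With the title number as a random block (correlation 0.521) 0 genes passed. No paired analysis was possible because the replicate numbers only follow accession order and the sets were cut from Pgr. Ranking by another Pgr probe set was not run, since the array has 1. Differences near the floor, as for Esr1 and Nptx1, are understated.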
